A study of Mus musculus with 6 samples.

Results

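Noncoding isoforms of 75 mouse protein-coding genes were less abundant in the irradiated than in the control thymus, while the mRNA of the same genes was more abundant. The members were chosen by measured values: each gene is in both deposited tables, and its control and irradiated means are at least 0.5 FPKM, a fragment count divided by transcript length and library size, in both. Its irradiated over control ratio is at least 1.5 for the mRNA and at most 0.67 for its lncRNA-table transcripts, summed per gene. Of 12534 genes in both tables, 6914 reached the level minimum and 75 met the ratios. Their features are 192 of the 53001 transcripts in the lncRNA table, or 192 of the 25408 transcripts of the 6914 genes. Since the irradiated over control contrast chose the members in both tables, their levels are given as a description and carry no test.

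The libraries came from whole thymus of C57BL mice labelled 5 weeks old. The control group of 3 mice was not irradiated, and the other 3 mice received 6 Gy of X-rays and were killed 24 h later. Polyadenylated RNA was sequenced, per the labels, and values below are in the order of replicates 1, 2 and 3. Which library came from which mouse is not spelled out in the labels, and p-values describe the spread among the libraries.

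Most genes make transcripts that carry no annotated reading frame beside their coding mRNA. The annotation class "retained intron" covers transcripts that keep intron sequence which the coding transcript splices out, and "processed transcript" covers other spliced or unspliced forms without a reading frame. Such transcripts are commonly held in the nucleus or degraded, and intron retention is known to vary between cell types and with cell state. In bulk tissue, fewer cells of a type and less RNA per cell cannot be told apart.

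By GENCODE M21 transcript type, 103 of the 192 member transcripts were retained introns (53.6%), 83 were processed transcripts (43.2%) and 6 were newly assembled by the authors. Over the transcripts of all 6914 genes the shares were 63.9%, 34.1% and 1.999%. A member gene had 1 to 6 such transcripts, with a median of 2, and 19 genes had a single one. Of the 103 member retained-intron transcripts 59 ended inside an intron of a coding transcript (57.3%, against 52.6% over all genes), and 27 held a whole intron (26.2%, against 31.3%). Counting both annotated types, 64 member transcripts of 49 genes ran through a 5′ splice site into the intron where they end. They did so at 61 distinct sites and held 3 to 3082 intron bases, with a median of 454. Transcripts of Dym and Hspa9 were not searched for such sites, so these counts cover the other member genes only.

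The sites below are those of the named genes at which a noncoding transcript runs from an exon into the intron where it ends, except that of Ppp2r1a-206, which holds only 3 intron bases. They are shown because there the noncoding isoform runs past the end of an exon of the coding transcript. Some isoforms, among them Spint2-204, Selenop-204 and Scarb2-202, also differ from the compared coding transcript upstream of the site. Each line gives the last 10 exon bases in lower case and the first 50 intron bases in capitals, 5′ to 3′ on the gene's strand, from GENCODE M21 transcripts on GRCm38.
Cs-202 (chr10:128337950-128338009, plus strand): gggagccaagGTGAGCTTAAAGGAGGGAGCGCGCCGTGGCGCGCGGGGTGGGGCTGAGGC
Ndufb9-202 (chr15:58933929-58933988, plus strand): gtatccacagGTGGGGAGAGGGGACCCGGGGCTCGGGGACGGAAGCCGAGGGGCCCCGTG
Scarb2-202 (chr5:92505142-92505201, minus strand): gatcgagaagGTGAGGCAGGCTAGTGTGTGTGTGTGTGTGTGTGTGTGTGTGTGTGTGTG
Selenop-204 (chr15:3274867-3274926, plus strand): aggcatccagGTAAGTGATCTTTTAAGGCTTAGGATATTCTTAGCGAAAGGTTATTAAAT
Spint2-204 (chr7:29263545-29263604, minus strand): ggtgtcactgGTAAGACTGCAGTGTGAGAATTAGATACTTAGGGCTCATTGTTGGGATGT
Nudt9-204 (chr5:104058209-104058268, plus strand): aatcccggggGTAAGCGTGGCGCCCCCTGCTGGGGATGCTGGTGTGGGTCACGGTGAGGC
Cd99l2-205 (chrX:71440475-71440534, minus strand): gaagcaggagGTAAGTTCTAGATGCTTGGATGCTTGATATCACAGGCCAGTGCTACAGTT
Kdelr1-202 (chr7:45874192-45874251, plus strand): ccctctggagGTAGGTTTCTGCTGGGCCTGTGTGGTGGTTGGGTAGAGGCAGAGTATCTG
Ncstn-205 (chr1:172081162-172081221, minus strand): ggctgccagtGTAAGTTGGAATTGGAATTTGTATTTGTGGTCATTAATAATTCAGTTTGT
Wbp1l-206 (chr19:46644446-46644505, plus strand): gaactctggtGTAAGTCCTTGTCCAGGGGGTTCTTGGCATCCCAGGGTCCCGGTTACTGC
Sgta-206 (chr10:81050949-81051008, minus strand): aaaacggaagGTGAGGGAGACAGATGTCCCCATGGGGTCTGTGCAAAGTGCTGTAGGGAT
Mrps18a-203 (chr17:46122822-46122881, plus strand): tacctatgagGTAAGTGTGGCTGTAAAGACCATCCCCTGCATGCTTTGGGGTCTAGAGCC
Ppp2r1a-203 (chr17:20961004-20961063, plus strand): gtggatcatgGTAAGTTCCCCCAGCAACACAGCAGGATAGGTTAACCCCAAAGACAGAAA
Ube2v1-206 (chr2:167617779-167617838, minus strand): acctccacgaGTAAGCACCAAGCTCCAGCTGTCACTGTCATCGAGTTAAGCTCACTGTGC
Mrps18a-206 (chr17:46125703-46125762, plus strand): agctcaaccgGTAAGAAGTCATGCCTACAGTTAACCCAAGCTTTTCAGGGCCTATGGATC
Sgta-204 (chr10:81047589-81047648, minus strand): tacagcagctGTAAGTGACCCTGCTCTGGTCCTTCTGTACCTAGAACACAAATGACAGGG
Ppp2r1a-204 (chr17:20961730-20961789, plus strand): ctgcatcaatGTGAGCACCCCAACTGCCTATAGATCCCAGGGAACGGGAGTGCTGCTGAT
Slc8b1-205 (chr5:120521852-120521911, plus strand): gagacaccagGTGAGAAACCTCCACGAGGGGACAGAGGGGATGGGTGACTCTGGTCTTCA

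Every intron start printed above begins with GT, as did 60 of the 61 distinct sites found in the member genes searched. The exception was a site of Diaph2, named after its sequence was read, whose intron begins with AT. In the GENCODE M21 models, Cs, Ndufb9 and Scarb2 were read through at the end of the first coding-transcript exon. Their annotated noncoding isoform thus shares only the start of the mRNA. Starts, ends and introns of isoforms given here are those of the models, and read coverage over them was not examined. Cs-202 continued for 2853 bases into an intron of 11793 bases, and Scarb2-202 for 391 bases into one of 19837 bases. The model of Ndufb9-202 stopped 327 bases into an intron of 2329 bases. Selenop-204 held 246 of the 690 bases of intron 2, and Nudt9-204 held 218 of the 1417 bases of intron 5.

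**Figure D1:**
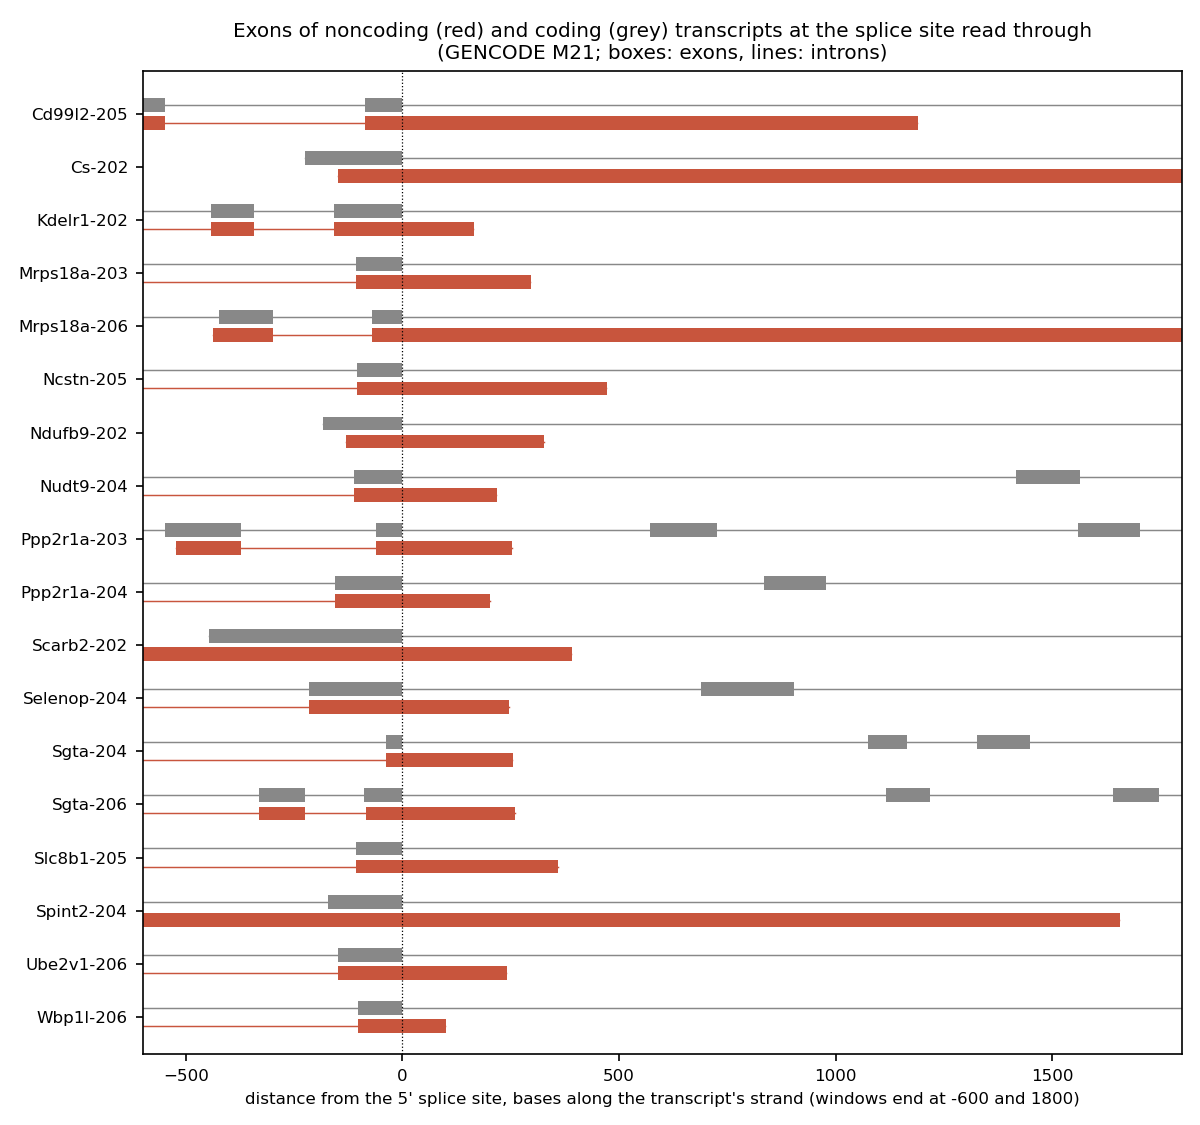
Exons (boxes) and introns (lines) of the noncoding transcripts of the named genes, in red, and of a coding transcript of the same gene, in grey. The horizontal axis is the distance in bases from the 5′ splice site that the noncoding transcript reads through, at 0. Each red box that crosses 0 enters the intron and ends within it. The panel is cut at both sides, and the boxes of Cs-202 and Mrps18a-206 run past its right edge.

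Whole retained introns were fewer and short. The member transcripts held 43 distinct whole introns in 23 genes, with a median of 208 bases and a GC content of 57.6%. Over all 6914 genes there were 7225 such introns, with a median of 268 bases and a GC content of 51.2%. All 43 member introns began with GT and ended with AG, as did 97.7% of all 7225. Examples are an intron near the 3′ end of Ncstn, a subunit of the gamma-secretase protease, kept in Ncstn-203, and an intron of the cargo receptor gene Tmed4, kept in Tmed4-202. They are printed on the gene's strand with the intron in capitals and 10 exon bases on each side in lower case.
Ncstn-203 (intron chr1:172067544-172067788, minus strand, 245 bases): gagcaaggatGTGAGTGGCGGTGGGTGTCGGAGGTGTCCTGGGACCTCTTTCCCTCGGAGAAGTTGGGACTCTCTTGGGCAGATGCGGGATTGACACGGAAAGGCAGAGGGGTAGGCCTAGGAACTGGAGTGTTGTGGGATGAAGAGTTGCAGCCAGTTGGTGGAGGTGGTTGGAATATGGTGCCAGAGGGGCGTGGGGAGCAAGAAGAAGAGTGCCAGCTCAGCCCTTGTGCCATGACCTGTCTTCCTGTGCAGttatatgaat
Tmed4-202 (intron chr11:6274482-6274680, minus strand, 199 bases): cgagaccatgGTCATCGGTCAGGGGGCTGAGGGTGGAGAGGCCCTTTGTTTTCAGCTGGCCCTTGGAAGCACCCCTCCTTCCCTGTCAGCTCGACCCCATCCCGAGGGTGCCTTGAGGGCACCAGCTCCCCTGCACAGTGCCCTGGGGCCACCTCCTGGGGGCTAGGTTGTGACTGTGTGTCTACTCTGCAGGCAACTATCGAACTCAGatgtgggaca
Coding transcripts of Tmed4 use a second splicing of the same place, the shorter intron chr11:6274499-6274673 of 175 bases, which lies within the longer one and is also kept whole.

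A polyadenylation signal was sought in the last 50 bases of each transcript as AATAAA or ATTAAA, on the transcript's own strand only. It was present in 22 of the 103 member retained-intron transcripts (21.4%), close to the 21.4% of the retained-intron transcripts of all 6914 genes. Among protein-coding transcripts it was present in 59.7% of those of the member genes and 49.9% of those of all genes at the level minimum. The Cs, Cd99l2 and Camta1 transcripts that end inside introns held AATAAA, shown in capitals in their last 50 bases.
Cs-202 (chr10:128340763-128340812, plus strand): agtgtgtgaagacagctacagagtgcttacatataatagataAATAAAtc
Cd99l2-205 (chrX:71439335-71439384, minus strand): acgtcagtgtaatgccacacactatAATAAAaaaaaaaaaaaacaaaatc
Camta1-206 (chr4:151792230-151792279, minus strand): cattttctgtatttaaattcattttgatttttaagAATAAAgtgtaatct
In Cd99l2-205 the letters lie in a run of A bases. A match is a description of the sequence and not a used site.

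Genes with both ratios past the thresholds in opposite directions were few. Of 1914 genes whose mRNA ratio was at least 1.5, the summed noncoding ratio was also at least 1.5 in 1000, between the thresholds in 839 and at most 0.67 in the 75 members (3.92%). The reverse, lower mRNA with higher noncoding transcripts, held in 4 genes, Crebzf, Ppat, Ppia and Sec22c, and both values were lower in 1532. The members' median mRNA ratio was 1.72 (range 1.501 to 3.01) and their median noncoding ratio 0.572 (lowest 0.286). Over all 6914 genes the medians were 1.00 for the mRNA and 0.715 for the noncoding sum, so noncoding values lay lower across the table and not only in the members.

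The number of members depends on the scale of both tables. The irradiated over control mean of the median-ratio scaling factors was 1.39 for mRNA and 0.734 for lncRNA-table transcripts. With each table divided by those factors, 8 of the 75 genes still met the rule: Cs, Ginm1, Myl12a, Ndufb9, Nudt9, Scarb2, Selenop and Vegfb. Under that scaling the reverse pattern held in 48 genes in place of 4. Scaling the lncRNA table alone left 16 of the 75 genes, and scaling the mRNA table alone left 19, both alternatives chosen after the data were seen. With both tables scaled, Selenop had ratios of 2.10 for the mRNA and 0.493 for the noncoding sum, and Cs had 1.97 and 0.665. The remaining genes missed at least 1 of the 2 ratio thresholds under that scaling, so their place in the list is tied to the scale of the deposited FPKM.

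**Figure D2:**
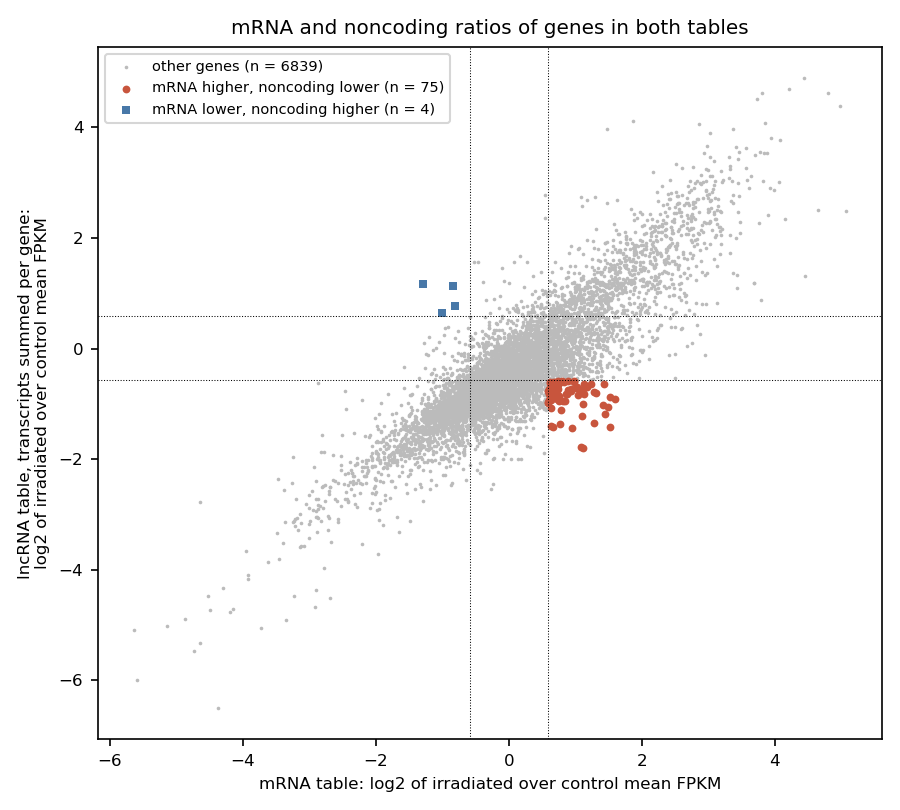
Log2 of irradiated over control mean FPKM for 6914 genes, in the mRNA table (horizontal) and summed over lncRNA-table transcripts (vertical), with dotted lines at ratios of 0.67 and 1.5. The 75 members (red) lie at the lower right edge of a cloud whose centre is below 0 on the vertical axis, and the 4 reverse genes (blue) lie at the upper left.

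At the noncoding threshold the members just inside were Vps18, Mrps18a and Pak4, with noncoding ratios of 0.6675, 0.6687 and 0.66996. Just outside it were Ndufa10, Atp6v0d1 and Gbe1, at 0.671, 0.674 and 0.675. At the mRNA threshold Ndufa9, Mfsd6 and Faap20 lay just inside, with mRNA ratios of 1.501, 1.504 and 1.509, and Heg1, Emp3 and Acbd6 just outside, at 1.494, 1.497 and 1.498.

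In 50 of the 75 genes every irradiated library was above every control in mRNA, where the background over the 6914 genes is 31.8%. In 42 genes every irradiated library was below every control in the noncoding sum, with a background of 42.2%. Both held in 30 genes, and in 2.57% of the 6914. The rule used these contrasts, so nothing is read from the counts. Of the 192 transcripts taken singly, 118 had a ratio of at most 0.67, 44 lay between the thresholds and 14 were at 1.5 or more. The other 16 were at 0 in all controls, 12 of them at 0 in all libraries. At most 0.67 were 72 of 103 retained introns and 40 of 83 processed transcripts, against 7546 of 16242 and 3391 of 8652 over all genes. At 1.5 or more were 5 and 9 of them, against 2764 and 1469. The rule used the sums of these values, so nothing is read from these counts either. In 74 transcripts all irradiated libraries were below all controls, with a background of 30.4% over the 25408 transcripts. In 54 genes every transcript with a control value was lower, while 12 genes also held a transcript with a ratio of 1.5 or more. The shares of such genes among all 6914 were not counted, so nothing is read from these numbers.

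The libraries contributed unequally. The members' median noncoding value over the control mean was 0.643, 0.508 and 0.471 in the irradiated libraries, and their median mRNA value was 1.35, 2.18 and 1.85. Irradiated replicate 1 thus lay nearest to the controls in both tables. In it the lncRNA table held 24.8% of all FPKM summed over both tables, against 22.4% to 23.8% in the controls and 13.9% and 15.8% in irradiated replicates 2 and 3. Without irradiated replicate 1 the rule gave 174 genes, 60 of them among the 75. Without irradiated replicate 2 it gave 50 genes, of which 32 were among the 75. The part of these library differences in the pattern was not tested.

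**Figure D3:**
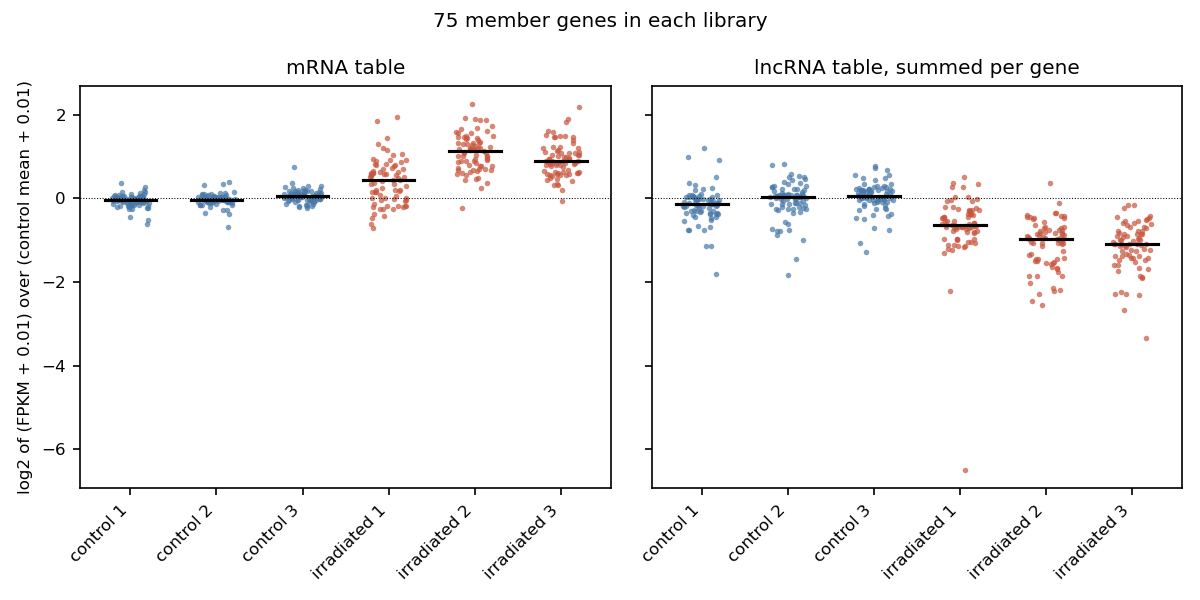
The 75 member genes in each library as log2 of FPKM over the control mean, with 0.01 FPKM added to both, for the mRNA (left) and for the summed noncoding transcripts (right). Black bars are medians, and the irradiated libraries lie above 0 on the left and below 0 on the right, least so in irradiated replicate 1.

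Secreted and surface proteins made up 9 of the 75 genes. Selenop encodes selenoprotein P, the secreted carrier of selenium. Its mRNA measured 99.7, 112 and 118 FPKM in the controls and 426, 294 and 222 FPKM in the irradiated libraries, a ratio of means of 2.86. Its only noncoding transcript, Selenop-204, measured 2.21, 1.40 and 2.65 FPKM in the controls and 1.29, 0.441 and 0.619 FPKM in the irradiated libraries, a ratio of 0.376. The groups did not overlap in either table. Irradiated replicate 1 had the highest mRNA and also the highest noncoding value of its group. Spint2 encodes a Kunitz-type inhibitor of serine proteases. Its mRNA was 64.6, 67.1 and 78.3 FPKM in the controls and 107, 98.5 and 121 FPKM after irradiation. Spint2-204, an unspliced transcript of 3252 bases with 94.7% of its length outside coding exons, was 3.99, 4.06 and 5.14 FPKM in the controls and 2.14, 1.20 and 1.64 FPKM after irradiation. It is the best counted of the named genes with a single noncoding transcript, at about 321 fragments per control library.

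Cd99l2 encodes an adhesion protein of leukocytes and endothelium. Its mRNA went from 6.28, 6.13 and 7.07 FPKM to 10.7, 17.9 and 13.98 FPKM, and its noncoding sum from 0.988, 1.495 and 1.36 FPKM to 0.730, 0.604 and 0.846 FPKM. The retained-intron form Cd99l2-205 had a ratio of 0.378 and the short processed form Cd99l2-206 one of 0.862, so the sum was lowered mainly by the former. Cd99l2-205 also overlaps exons of a gene on the other strand, and strand use in the authors' counting is not given. The other 6 genes of this group were Cd86, Ece1, Fbln2, Lgals9, Tgfb1 and Vegfb. Fbln2, a matrix protein gene, was mixed: its noncoding sum had a ratio of 0.581, yet 3 of its 4 transcripts, all at 0.0895 FPKM or less in the controls, had ratios above 7.

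The endoplasmic reticulum, Golgi and vesicle traffic group held 10 genes, 7 of them among the 30 without overlap in either table. Over all 6914 genes that share was 2.57%, and the rule used these contrasts, so nothing is read from the count. Tmed4 encodes a p24 cargo receptor of vesicles between these compartments. Its mRNA was 11.3, 11.6 and 12.4 FPKM in the controls and 22.1, 23.8 and 22.5 FPKM in the irradiated libraries. Tmed4-202, its only noncoding transcript and the holder of the whole intron printed above, was 2.77, 2.68 and 2.61 FPKM and then 1.36, 0.894 and 0.715 FPKM. The spread was small in the mRNA and among the noncoding control values and wider among the irradiated noncoding values, and the groups did not overlap. Kdelr1 encodes the receptor that returns escaped proteins to the endoplasmic reticulum. Its mRNA went from 15.1, 15.6 and 12.9 FPKM to 30.3, 36.5 and 41.1 FPKM, and its noncoding sum from 6.46, 7.86 and 4.75 FPKM to 3.71, 4.29 and 2.98 FPKM. Only the upstream form, Kdelr1-202, was free of overlap, since Kdelr1-204 stood at 3.29 FPKM in irradiated replicate 2 and at 1.52 FPKM in control replicate 3.

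Ginm1 encodes a membrane glycoprotein. Its mRNA was 7.28, 6.85 and 8.63 FPKM in the controls and 13.5, 20.6 and 14.1 FPKM after irradiation, with noncoding sums of 2.42, 2.17 and 3.21 FPKM and of 0.0188, 0.909 and 1.33 FPKM. The low value of irradiated replicate 1 came from Ginm1-206, an unspliced form listed at 0 there. For Ncstn the mRNA went from 19.0, 22.1 and 22.9 FPKM to 31.96, 49.1 and 49.0 FPKM while the noncoding sum went from 6.91, 7.95 and 7.54 FPKM to 5.49, 4.13 and 4.20 FPKM. Its 3 transcripts differed: Ncstn-205, which reads through the end of exon 2, had a ratio of 0.526 without overlap, and the 2 forms that keep a whole intron, Ncstn-203 and Ncstn-202, had ratios of 0.666 and 0.796 with overlap. Ncstn-205 also overlaps the gene Copa on the other strand. The remaining genes of the group were Alg9, Dym, Qpctl, Rtn4, Sypl and Trappc1.

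Lysosomal members were Scarb2, Laptm5 and Vps18. Scarb2 encodes the lysosomal membrane protein that carries glucocerebrosidase. Its mRNA was 28.3, 26.5 and 30.3 FPKM in the controls and 76.9, 70.9 and 78.4 FPKM after irradiation. Scarb2-202 was 1.90, 2.03 and 2.23 FPKM and then 1.27, 0.743 and 1.03 FPKM, with no overlap. Scarb2 noncoding FPKM per 100 FPKM of mRNA thus went from 7.24 to 1.34. Over all members the median of this quotient went from 21.9 to 6.86, and over all 6914 genes from 31.7 to 22.5. Laptm5, a lysosomal membrane protein of blood cells, was far more abundant in noncoding form: its 6 transcripts together gave 23.6, 29.9 and 34.2 FPKM before and 18.9, 11.5 and 26.3 FPKM after irradiation, and these groups overlapped.

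Mitochondrial proteins made up 22 of the 75 genes. They comprised 9 subunits of the respiratory chain and ATP synthase (Atp5k, Atp5o, Cox4i1, Cox5b, Ndufa3, Ndufa9, Ndufb9, Ndufv3 and Sdhb), 5 enzymes of fuel oxidation (Acads, Cs, Idh3a, Idh3b and Sucla2) and 8 others (Clpp, Dnaja3, Hspa9, Mrps18a, Nudt9, Prdx5, Slc25a16 and Slc8b1). Roles were assigned after the values had been seen. Of 54 respiratory chain and ATP synthase genes at the level minimum, found by words in the deposited gene descriptions, 26 had an mRNA ratio of at least 1.5, 23 a noncoding ratio of at most 0.67 and 9 both. Over all 6914 genes, 27.7% had such an mRNA ratio and 45.1% such a noncoding ratio. The share of members was 16.7% among them and 1.08% among all 6914 genes, with no test. Their median ratios were 1.43 for the mRNA and 0.695 for the noncoding sum, beside 1.00 and 0.715 over all genes, so they stood apart from all genes mainly in the mRNA.

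Cs encodes citrate synthase, which opens the citric acid cycle. Its mRNA was 35.9, 33.1 and 36.3 FPKM in the controls and 40.6, 167 and 87.7 FPKM after irradiation. Cs-202 was 2.50, 2.64 and 2.92 FPKM in the controls and 1.27, 1.26 and 1.33 FPKM after irradiation. On the deposited scale the noncoding isoform thus stood at nearly the same level in all irradiated libraries. The mRNA differed widely among them and stood just above the controls in irradiated replicate 1. Divided by the lncRNA-table scaling factors of these libraries (1.04, 0.758 and 0.844), the noncoding values are less alike. Ndufb9 encodes a subunit of complex I. Its mRNA was 32.2, 48.3 and 33.1 FPKM in the controls and 58.5, 122 and 65.8 FPKM after irradiation, and Ndufb9-202 was 1.49, 2.85 and 1.39 FPKM and then 0.852, 0.411 and 0.377 FPKM. Of the 9 respiratory chain and ATP synthase members Ndufb9 alone had mRNA groups without overlap, where the share over all 6914 genes was 31.8%. In 6 of the 9 the noncoding groups did not overlap, where that share was 42.2%. Ndufb9-202 rests on few fragments, about 19.8 per control and 6.21 per irradiated library.

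Nudt9 encodes a mitochondrial hydrolase of ADP-ribose. Its mRNA was 9.87, 8.43 and 9.91 FPKM in the controls and 12.7, 21.2 and 26.6 FPKM after irradiation, while Nudt9-204 went from 1.30, 2.27 and 1.39 FPKM to 0.700, 0.832 and 0.607 FPKM. Nudt9-204 overlaps a gene on the other strand. Mrps18a, a protein of the mitochondrial ribosome, went in mRNA from 15.03, 14.01 and 14.12 FPKM to 16.7, 28.9 and 26.7 FPKM. Its noncoding sum was 7.35, 5.45 and 6.50 FPKM and then 4.02, 4.92 and 3.97 FPKM. The forms that read through a splice site, Mrps18a-203 and Mrps18a-206, had ratios of 0.527 and 0.640 without overlap, and its other forms 0.881 and 0.694 with overlap.

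Slc8b1, the mitochondrial sodium-calcium exchanger, had the highest mRNA ratio, from 5.49, 6.20 and 7.13 FPKM to 22.7, 16.4 and 17.5 FPKM. Its membership rests on a newly assembled transcript on the strand opposite to the gene, which spans other genes and supplied 91.9% of the noncoding sum in the controls. That transcript was 2.44, 3.43 and 3.93 FPKM and then 1.25, 0.641 and 1.16 FPKM. The annotated retained-intron form Slc8b1-205 went the other way, from 0.440, 0.254 and 0.170 FPKM to 1.46, 0.330 and 0.798 FPKM, with overlap. With annotated transcripts only, a choice made after the data were seen, Slc8b1, Camta1, Ece1 and Tgfb1 left the list and 71 of the 75 genes stayed.

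The mRNA ratio of the mitochondrial members differed between the irradiated libraries. Their median mRNA over the control mean was 1.099, 2.48 and 1.78 in irradiated replicates 1, 2 and 3. Over all 6914 genes it was 0.962, 0.969 and 1.01. In irradiated replicate 1 the respiratory chain and ATP synthase members had an mRNA median of 0.879 and the fuel oxidation members one of 0.906, below the controls, and the 8 others one of 1.56. The median noncoding value of the 22 genes was 0.673, 0.511 and 0.507, beside 0.817, 0.600 and 0.666 over all 6914 genes. For the other 53 members the medians were 1.45, 1.91 and 1.93 for the mRNA and 0.637, 0.4998 and 0.467 for the noncoding sum. Without irradiated replicate 2, 8 of the 22 mitochondrial members and 24 of the other 53 still met the rule. A skeletal muscle list moved with these libraries: the sum of its 6 genes was 5.95 to 6.46 FPKM in the controls and then 4.30, 137 and 27.9 FPKM, and muscle actin Acta1 stood at 0, 0.0737 and 0.216 FPKM before and 1.36, 74.8 and 11.9 FPKM after irradiation. Srl, which encodes a calcium-binding protein of the muscle sarcoplasmic reticulum, is itself a member with mRNA at 1.81, 10.9 and 2.85 FPKM after irradiation and 2.33 to 3.80 FPKM in the controls. For an airway epithelium list the sums were 3.34 to 4.48 FPKM without and 45.7, 3153 and 46.6 FPKM with irradiation. The part of muscle and airway RNA in the mRNA ratios was not tested.

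In the group of protein synthesis, folding and turnover, Sgta and Ube2v1 had the highest noncoding control means among genes without overlap, while Rpl23 and Psmd4, whose noncoding groups overlapped, had higher ones. Sgta encodes a co-chaperone that sorts tail-anchored proteins. Its mRNA was 19.1, 18.6 and 19.7 FPKM in the controls and 22.7, 35.7 and 30.1 FPKM after irradiation, and its noncoding sum was 6.16, 6.28 and 5.65 FPKM and then 3.84, 3.07 and 2.74 FPKM. All 3 Sgta transcripts were lower without overlap, with ratios of 0.360 for Sgta-206, 0.699 for Sgta-203 and 0.721 for Sgta-204. Ube2v1 encodes a partner subunit of a ubiquitin-conjugating enzyme. Its mRNA went from 23.6, 23.1 and 23.2 FPKM to 26.6, 37.6 and 41.8 FPKM and its noncoding sum from 5.31, 6.30 and 4.51 FPKM to 2.42, 3.04 and 4.00 FPKM. All of its transcripts share exons with the gene Gm20431 on the same strand, so their values are uncertain. The other 5 genes were Arel1, Fbxo21, Psmd4, Rhbdd1 and Rpl23, and Rpl23 mRNA exceeded the controls in irradiated replicate 3 only, at 189 FPKM against 60.0 to 65.7 FPKM.

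Signalling and cytoskeletal members were Cib1, Diaph2, Llgl2, Myl12a, Nek7, Pak4, Ppp2r1a and Sik2. Ppp2r1a encodes the scaffold subunit of protein phosphatase 2A. Its mRNA was 40.0, 42.5 and 44.8 FPKM in the controls and 47.3, 73.3 and 75.01 FPKM after irradiation, with noncoding sums of 6.65, 9.22 and 7.62 FPKM and then 6.62, 5.00 and 3.68 FPKM. The closest libraries, control replicate 1 and irradiated replicate 1, differed by less than either group's spread. Ppp2r1a-203 had a ratio of 0.430, and Ppp2r1a-202, which keeps a whole intron, one of 0.874.

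The transcription, chromatin and DNA repair members were Ascc1, Camta1, Faap20, Kat2a and Rela. Camta1 encodes a calmodulin-binding transcription activator and had the highest noncoding share of all members, 91.2 FPKM per 100 FPKM of mRNA in the controls and 38.0 after irradiation. Its mRNA was 6.44, 6.58 and 8.29 FPKM and then 16.4, 8.51 and 8.91 FPKM. Its noncoding sum was 5.69, 6.05 and 7.70 FPKM and then 5.32, 3.07 and 4.45 FPKM, with most from a newly assembled transcript of the gene's own strand (ratio 0.473) and from Camta1-212 (ratio 0.613). Camta1-208 was listed at 0 in all controls and at 1.63, 0.289 and 0.786 FPKM after irradiation.

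Wbp1l, which encodes a membrane protein that binds WW domains, had noncoding values that differed widely among the controls. Its mRNA was 22.65, 25.2 and 33.0 FPKM in the controls and 46.6, 42.2 and 48.4 FPKM after irradiation, and its noncoding sum was 4.91, 6.97 and 11.6 FPKM and then 4.69, 1.33 and 3.06 FPKM. Control replicate 1 and irradiated replicate 1 were again the closest. Wbp1l-206, which ends 100 bases into an intron of 8018 bases, had a ratio of 0.299, and Wbp1l-205 one of 0.751. The enzymes of lipids, retinoids and sugars (Abcd3, Dhrs3, Gpat4, Hsd17b12, Pgam1 and Pon2) had 4 genes without overlap in mRNA and 1 in the noncoding sum, and none in both. The shares over all 6914 genes were 31.8%, 42.2% and 2.57%. Dazap2, Mfsd6 and Scrn2 complete the list.

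**Figure D4:**
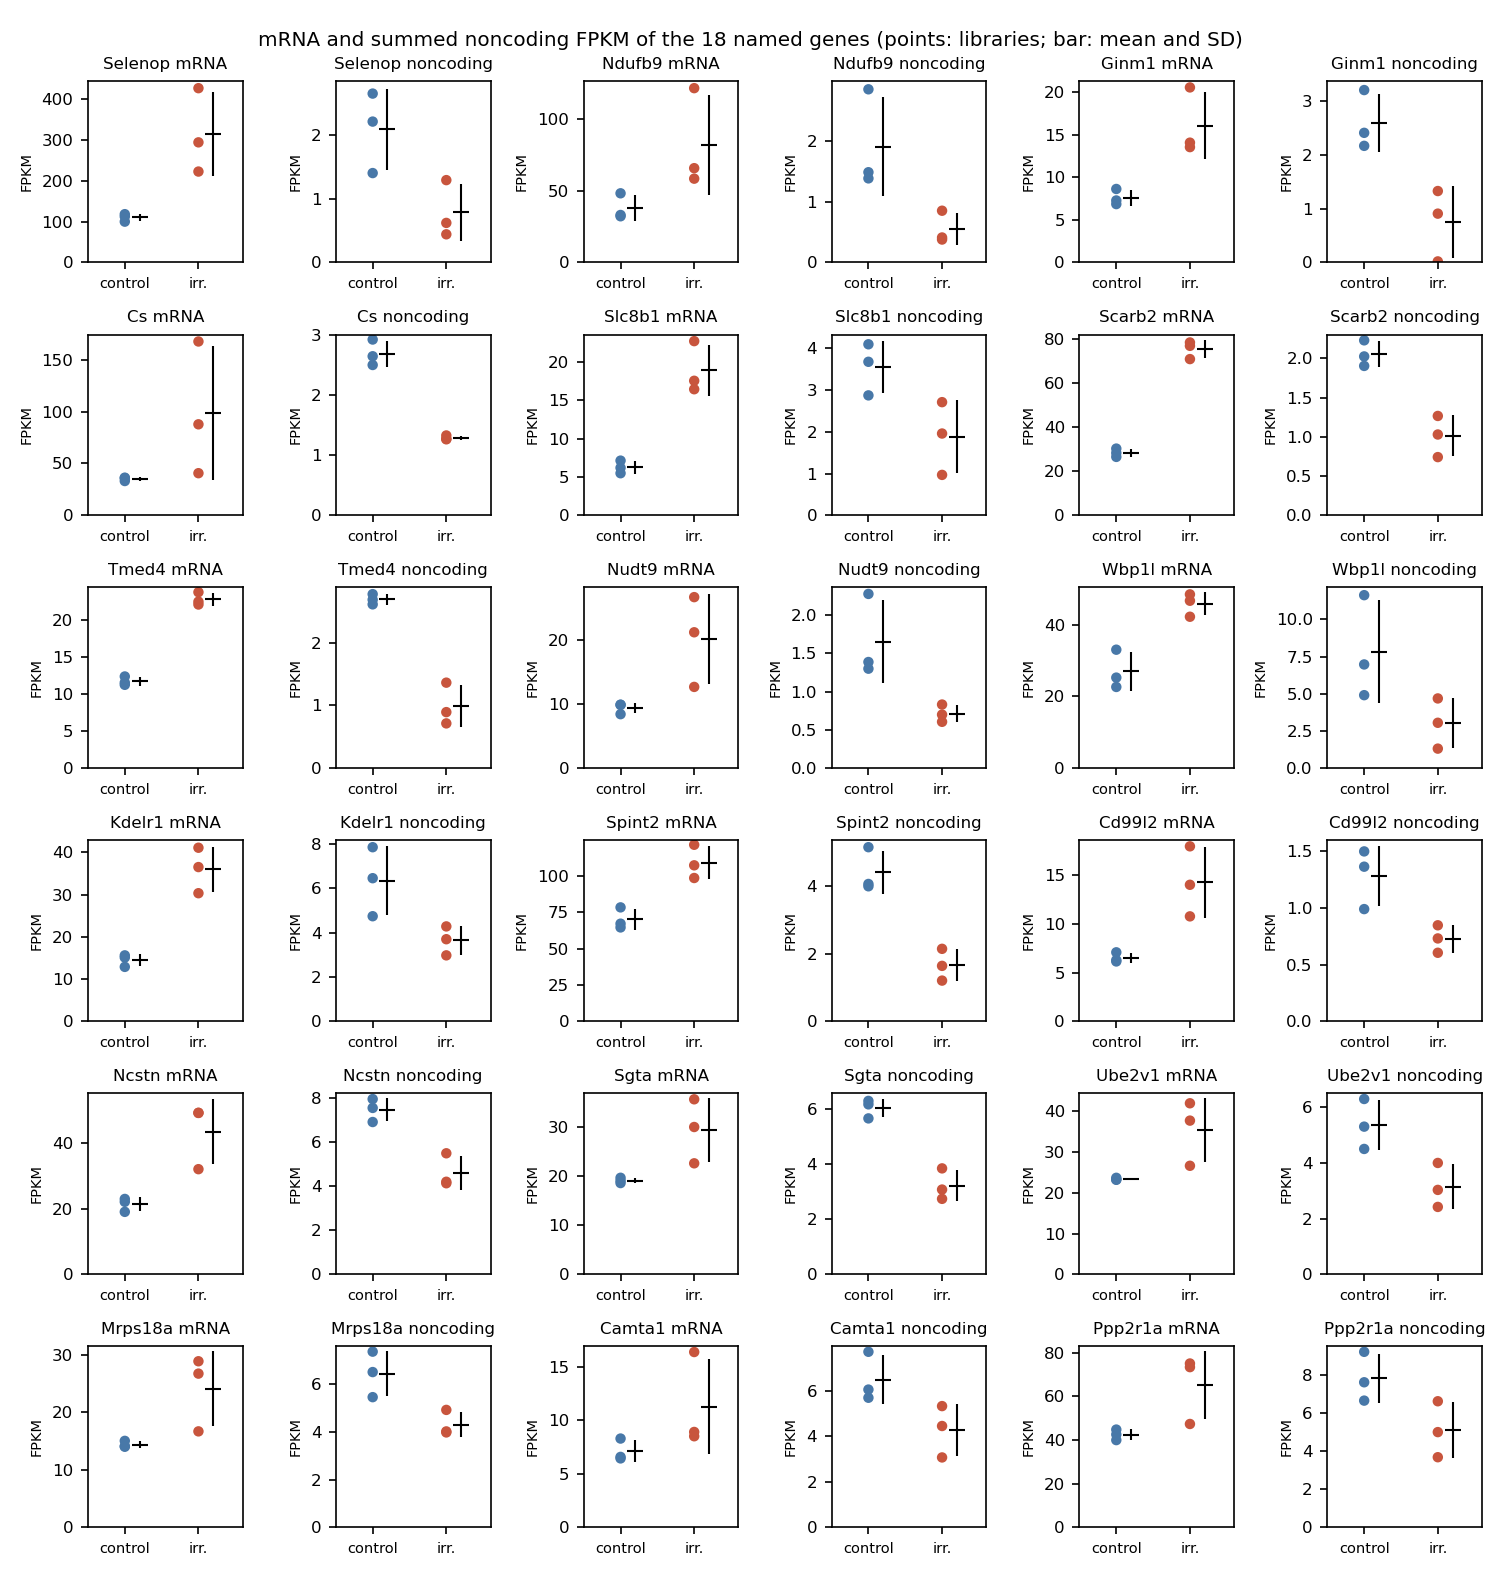
FPKM of the 18 named genes in the mRNA table and summed over their lncRNA-table transcripts, with a point for each library (3 control, blue; 3 irradiated, red) and the mean and SD of each group as a bar. Groups do not overlap in any panel, which is a condition for naming, and Cs mRNA spreads from 40.6 to 167 FPKM over the irradiated libraries.

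None of the members belongs to the RNA processing lists, so the rule did not choose the genes tested here. The lists were still written with earlier results of these data known. Of 116 tested genes of 7 lists 74 fell and 2 rose (limma adjusted p under 0.05), where 20.9% of all 14001 tested mRNA genes were called lower and 42.4% higher. The median log2 change over all tested genes was 0.40, so a gene called lower stood further below the table's centre than its own value shows. SR proteins, which bind exons and recruit the splicing machinery, had 10 of 12 lower, with a median log2 change of -0.98. Srsf3 went from 157 ± 6.89 to 47.4 ± 9.75 FPKM (SD, n = 3 each, log2 change -1.74, limma adjusted p = 3.18e-04) and Tra2b from 88.3 ± 9.23 to 34.0 ± 4.00 FPKM (limma adjusted p = 3.49e-04). The kinases that phosphorylate them had 3 of 6 lower, with Clk3 at a log2 change of -1.88 and Clk1 at -1.13.

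Among hnRNP proteins, which coat nascent RNA, 20 of 23 fell, with a median log2 change of -0.96. The genes named per list and direction are those with the smallest adjusted p, not the largest change. Here they were Hnrnpll (log2 change -1.19) and Hnrnpd (-0.84). The core spliceosome had 14 of 30 lower, with Snrpd1 at -1.65 and U2af1 at -1.04, and 1 higher, Prpf6. Of the mRNA export factors 11 of 12 fell, among them Sarnp at -1.37 and Thoc7 at -1.63. The nuclear exosome, which degrades unspliced and aberrant nuclear RNA, had 10 of 16 lower, among them Zcchc8 (-1.10) and Exosc8 (-1.42). Nonsense-mediated decay, which degrades transcripts with early stop codons in the cytoplasm, had 6 of 17 lower, among them Magoh (-1.85) and Smg1 (-1.15). It had 1 higher, Nbas (0.79). Neither Prpf6 nor Nbas was called higher under median-ratio scaling or quantile normalization, which gave 102 and 83 of the 116 genes lower.

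**Figure D5:**
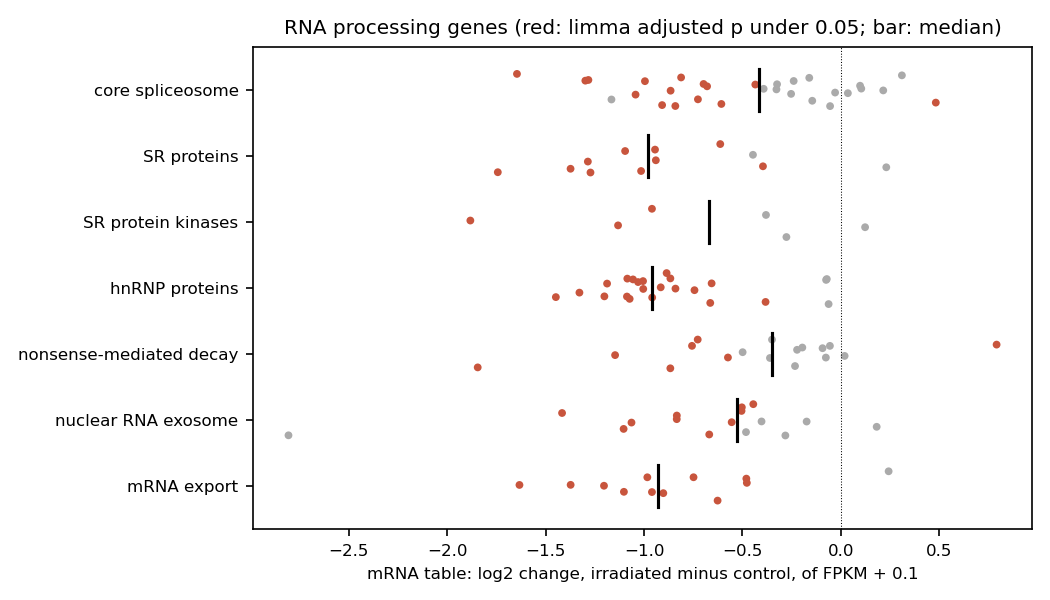
Log2 change of each tested gene of 7 RNA processing lists in the mRNA table (horizontal, irradiated minus control, on FPKM + 0.1), 1 row of points per list, red where limma's adjusted p is under 0.05 and with the list's median as a black bar. All 7 medians lie below 0, lowest for the SR proteins at -0.98.

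Sums over cell type markers, and over mitosis, lysosome and p53 target genes, also differed between the groups. The 15 marker genes of double-positive thymocytes summed to 2724 to 3029 FPKM in the controls and to 220.1 to 274 FPKM after irradiation, and 18 mitosis genes to 579.8 to 729 and to 43.1 to 114 FPKM. Macrophage markers (12 genes, 231 to 330.5 FPKM in the controls) reached 1629 to 1902 FPKM, fibroblast and pericyte markers (12 genes, 87.6 to 112) reached 749 to 902 FPKM, and thymic epithelium markers (12 genes, 332 to 525) reached 971 to 1444 FPKM. Endothelial markers (10 genes) lay at 34.7 to 43.9 FPKM before and 56.9 to 159 FPKM after irradiation, and B and plasma cell markers (8 genes) at 46.5 to 49.7 and 85.7 to 301 FPKM. Lysosome and autophagy genes (25) summed to 773 to 794 FPKM and then 3231 to 4378 FPKM, and p53 targets (30) to 601 to 681 FPKM and then 1016 to 1179 FPKM. Whether the members' mRNA and noncoding isoforms come from the same cells was not tested. The part of cell makeup in the opposite ratios cannot be told apart from a change within cells in these bulk libraries. The same holds for the lower mRNA of the RNA processing genes.

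In the table of mRNA values, 5933 of 14001 tested genes were called higher and 2920 lower, or 4444 and 4917 under median-ratio scaling. Of 19247 tested lncRNA-table transcripts 1590 were called higher and 4726 lower (24.6%), or 2228 and 2351 under median-ratio scaling. Depth, estimated from the smallest steps of the FPKM values, gave 0.0431 to 0.0456 FPKM for 1 fragment in a 1 kb transcript in the controls and 0.0391 to 0.0409 FPKM in the irradiated libraries. The median member transcript then rested on about 18.2 fragments per control and 12.6 per irradiated library, and 76 of the 192 on fewer than 10 in the controls. How the authors divided fragments between isoforms that share exons is not given in the sources used here. Single-transcript values are less certain for it, and so are the sums per gene, since noncoding and coding isoforms share exons. The median share of bases outside coding exons was 47.7% in member retained-intron transcripts and 38.2% in member processed transcripts. The part of this division in the opposite ratios was not tested.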

How the data were processed

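Polyadenylated thymus RNA of 3 control and 3 irradiated mice was turned into NEBNext libraries, per the labels' protocols. The authors deposited FPKM values per library for mRNA genes and for lncRNA-table transcripts. DESeq2 1.10.1 is named in the submitters' processing notes, and the authors' fold changes and p-values were not used. Their aligner, build, annotation and strand setting remain not given in the sources used here. All 186 annotated member transcripts had the same start and end in GENCODE M21 (GRCm38), which supplied types, exons and sequences. Lines without values (62) were dropped, mRNA values were taken once per gene and noncoding transcripts were summed per gene.

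The members, role groups and gene lists were chosen with earlier results of these data known. Each table was tested whole with limma 3.58.1 in R 4.3.3 on log2(FPKM + 0.1), for features averaging at least 0.5 FPKM, with a group-only model, an abundance trend, Benjamini-Hochberg adjustment and a threshold of 0.05. The limma step was tested on simulated data. Named members are the 12 with the largest gap between log2 mRNA and log2 noncoding ratio and the 8 with the highest noncoding control mean, among those without overlap in either table and with at least 1 FPKM of noncoding control mean. The 3 genes on each side of each threshold and the 2 genes with the smallest adjusted p in each direction of each RNA processing list are also named. Other members are named for their role or for a value that stands out, chosen after their values were seen. The alternatives changed pseudocount, filter, scaling, level minimum, ratio thresholds, summary of libraries and transcripts, replicate block, and left out each library in turn.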

Additional observations from a re-analysis of the deposited data

How the results depend on the processing

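The count of 75 genes (192 transcripts) was 9 (15) with ratio thresholds of 2 and 0.5, 122 (336) with medians of the libraries, 116 (363) with the largest noncoding transcript per gene, 8 (11) with median-ratio scaling of each table, 16 (29) with that of the lncRNA table only and 19 (37) with that of the mRNA table only. Leaving out 1 library gave 50 to 174 genes and 109 to 489 transcripts, with 174 genes and 489 transcripts without irradiated replicate 1 and 109 transcripts without irradiated replicate 2. The other level minimums (0.2 and 1 FPKM), annotated transcripts only and retained-intron transcripts only gave 50 to 112 genes; these choices of transcripts and the scaling of 1 table only were made after seeing the data. The mRNA genes called higher were 3501 with quantile normalization, and those called lower 4917 with median-ratio scaling and 4403 with quantile normalization. The lncRNA-table transcripts called higher were 2725 with no filter on low values, and those called lower 2351 with median-ratio scaling and 2041 with quantile normalization. Leaving out 1 library gave 4916 to 6730 mRNA genes higher and 2150 to 3466 lower, and 914 to 1668 transcripts higher and 1806 to 6956 lower, with fewer samples in each fit. Transcripts called higher were 1019, 999 and 914 without control replicate 2 and irradiated replicates 2 and 3, and those called lower were 2131, 1827 and 1806 without control replicates 1, 2 and 3 and 2788 and 2660 without irradiated replicates 2 and 3. RNA processing genes called lower ran from 61 to 79 over the leave-one-out fits, and those called higher from 0 to 5 (0, 0 and 1 without control replicates 1, 2 and 3, and 5, 1 and 1 without irradiated replicates 1, 2 and 3), with 0 higher under median-ratio scaling and under quantile normalization. Where a value has no shown reason here, the cause was not tested. About 18.2 fragments per control library behind the median member transcript limit what single transcripts can show.

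With the replicate number as a block, 5693 mRNA genes were called higher and 2662 lower, 1336 transcripts higher and 3361 lower, and 69 RNA processing genes lower and 2 higher. Same-numbered libraries did not deviate together: the correlations of their deviations from the group means were 0.06, -0.04 and 0.05 in the mRNA table and -0.01, 0.01 and 0.00 in the lncRNA table, so the numbers were not taken as pairs.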
